A study of Homo sapiens with 6 samples.

Results

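Small MAF genes and their partners are described here in 6 RNA-seq libraries of PC9 cells, an established line from a human lung adenocarcinoma with an activating EGFR mutation. They are MAFF, MAFG and MAFK, the 3 small MAF genes, and BACH1, NFE2L1 and NFE2L2, which encode factors that pair with small MAF proteins. The 6 genes were taken by symbol from a table of 58825 genes, and their 64 annotated transcripts from a table of 208460 transcripts. The set was chosen by the FPKM values of MAFF, which differ between the G and the A libraries, so its values and those of its transcripts are given as a description with no test. The other 5 genes came in as its paralogs and binding partners, and all 6 genes passed the filter on low values.

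The cells overexpressed FOXM1, a forkhead transcription factor of the mitotic programme, carrying either the A or the G allele of the variant rs3742076. There were 3 libraries per allele, and the cells of all 6 had been given gefitinib, an inhibitor of the EGFR kinase, at 100 nM for 24 h. Cells without overexpressed FOXM1 and cells without gefitinib were not analysed here, so every difference below is between alleles in drug-treated cells of 1 line. Neither the vector nor the number of clones behind each allele is stated in the labels, and RNA of the introduced FOXM1 could not be told apart from that of the cells' own gene. The series asks whether the variant alters gefitinib resistance through the Wnt/β-catenin pathway, and the 2 alleles are the comparison its design text names.

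Small MAF proteins are basic leucine zipper factors that bind DNA but lack a transactivation domain. As pairs of small MAFs they occupy MAF recognition and antioxidant response elements without activating transcription. Paired with a cap'n'collar (CNC) factor such as NRF1 (gene NFE2L1) or NRF2 (gene NFE2L2) they activate genes of redox defence, iron handling and the proteasome, and paired with BACH1, also of the CNC family, they repress genes such as HMOX1. MAFF is known as an inducible member of the trio, responding to stress, growth factor and inflammatory signals.

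Depth was estimated at 19760000 to 23280000 read-pair equivalents per library, an estimate that could be off by a simple factor. At 1 FPKM or more (fragments per kilobase of transcript, scaled to the mapped fragments of the library) there were 12451 to 12858 genes in each. Across genes, log2 values correlated at 0.974 to 0.979 within an allele and at 0.970 to 0.976 between alleles. On the first principal component, with 28.3% of the variance, A replicate 1 lay at 0.443, nearer to the G libraries (8.67 to 14.8) than to A replicates 2 and 3 (-20.9 and -15.2). FOXM1 itself was at 25.5, 10.5 and 10.1 FPKM in A replicates 1, 2 and 3 and at 14.6, 14.3 and 14.0 FPKM in the G libraries (log2 difference 0.031; limma, adjusted p = 0.969). This difference depended on single A libraries, at 0.44 without A replicate 1 (adjusted p = 0.0871), -0.16 without A replicate 2 and -0.19 without A replicate 3. RNAs of the mitochondrial genome made up 22.1% ± 0.0704 (SD, n = 3) of summed FPKM in A and 18.7% ± 0.982 (SD, n = 3) in G. Other genes thus made up a larger share in G, but of a smaller total. Summed FPKM was 270219 to 277596 in A and 253706 to 255269 in G. The 6 epithelial markers summed to 2613 to 3341 FPKM, and of the 4 leukocyte genes listed, PTPRC and CD3E did not exceed 0.04 FPKM, CD14 was at 0.680 to 1.17 FPKM and CD68 at 35.9 to 48.7 FPKM. The lung lineage genes NKX2-1, NAPSA, SFTPB and SFTPC were all under 1 FPKM in every library, so the lung label rests on no lineage marker here. These are bulk measurements, in which fewer cells of a kind and less RNA per cell cannot be told apart.

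The 3 small MAF genes are related in sequence, and the stretch of highest identity shows how far reads could be shared between them. It lies in the part that encodes the basic, DNA-contacting region. Each sequence below has 90 bases, coding bases 157 to 246 counted from the start codon, on GRCh38 from GENCODE release 29, and capitals mark bases that are not identical in all 3 genes. MAFF lies at chr22:38214540-38214629 on the plus strand, MAFG at chr17:81922848-81922937 on the minus strand and MAFK at chr7:1540061-1540150 on the plus strand.
MAFF: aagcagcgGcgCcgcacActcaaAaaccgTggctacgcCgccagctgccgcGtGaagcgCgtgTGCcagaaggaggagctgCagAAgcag
MAFG: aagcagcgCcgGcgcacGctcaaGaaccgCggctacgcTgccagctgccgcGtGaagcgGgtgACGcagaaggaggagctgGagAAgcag
MAFK: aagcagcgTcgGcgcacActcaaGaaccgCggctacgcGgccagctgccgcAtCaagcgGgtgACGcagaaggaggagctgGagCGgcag
In this stretch 75 of 90 bases were the same in all 3 genes, and MAFG and MAFK shared 79 and 76 bases with MAFF. Over the aligned coding sequences, identity was 74.1% for MAFF and MAFG (349 of 471 bases), 76.3% for MAFF and MAFK (354 of 464) and 77.1% for MAFG and MAFK (361 of 468). The longest run without a difference was 21 bases between MAFF and MAFG, 29 between MAFF and MAFK and 37 between MAFG and MAFK, over whole transcripts as well. All of these runs are far shorter than a read of 150 bases.

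MAFF was lower in every G library than in every A library. Its gene (ENSG00000185022, chr22:38200767-38216507, plus strand) was at 5.56, 5.86 and 6.28 FPKM in A replicates 1, 2 and 3 and at 1.56, 1.45 and 1.97 FPKM in G replicates 1, 2 and 3. The groups lay far apart, and no library of either allele came near those of the other. The means were 5.90 FPKM ± 0.363 (SD, n = 3) in A and 1.66 FPKM ± 0.274 (SD, n = 3) in G, 3.55 times higher in A. On the log2(FPKM + 1) scale used below the difference, G minus A, was -1.38, and the authors' deposited table gives a log2 fold change of -1.83 with no added constant. By the estimated depth these levels correspond to 673, 753 and 697 read-pair equivalents in A and 189, 164 and 257 in G, numbers that would all shift if the depth estimate is off by a common factor.

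For context, 14 of the 12787 genes tested across the table passed an adjusted p of 0.05, 0.109% of them. Groups that do not overlap were found for 24.9% of tested genes, and for 9.57% with G as the lower group. All 3 G values at or under the lowest A value divided by 2 occurred in 6 genes, 0.0469%. MAFF is among these by its choice, and nothing is read from its place there.

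**Figure D1:**
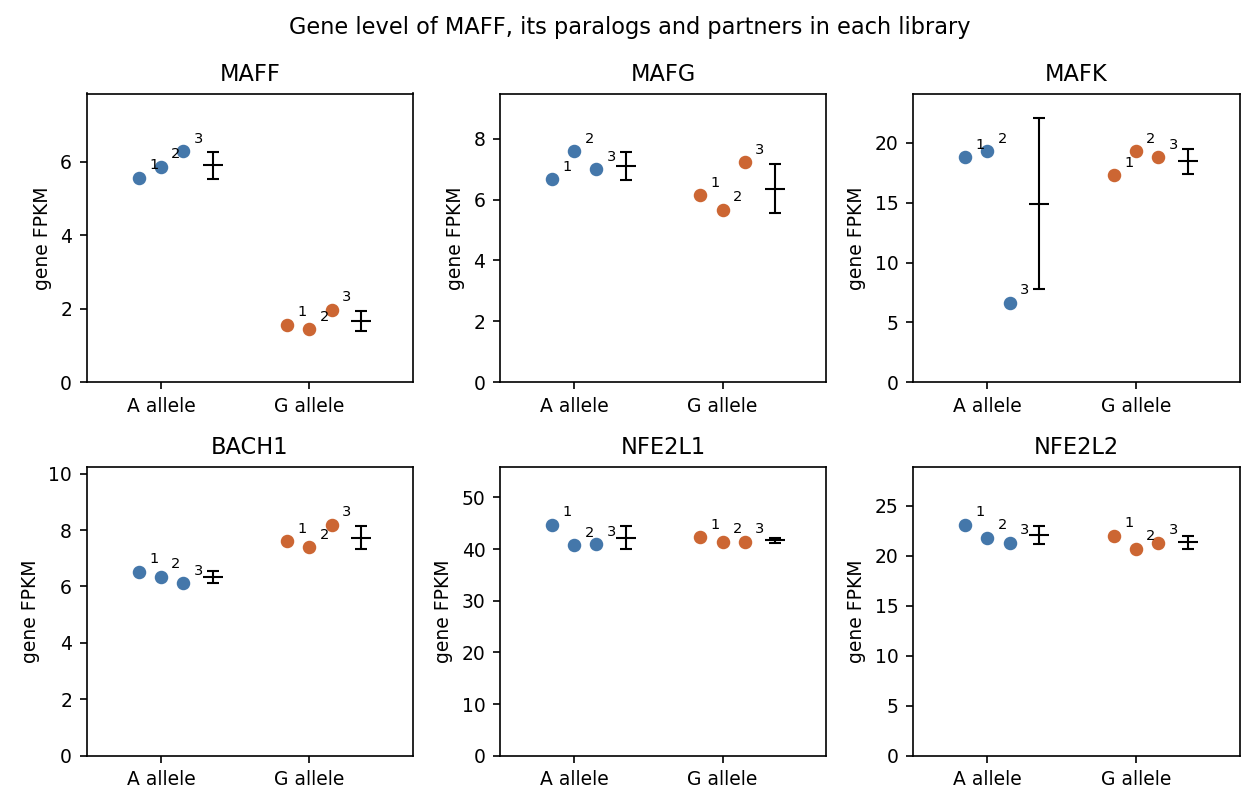
Gene level (FPKM, linear axes from 0) of MAFF, its paralogs and its partners in each library. Points are libraries numbered by replicate, and bars give the mean ± SD of 3. MAFF lies at 5.56 to 6.28 in A and 1.45 to 1.97 in G, BACH1 is separated by a smaller gap in the other direction, and MAFK has a lone low library, A replicate 3 at 6.65.

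The difference in MAFF lay in the transcript that made up nearly all of its RNA in A. ENST00000338483, with 3 exons and 2374 bases, was at 12.9, 13.8 and 14.7 FPKM in the A libraries and at 2.65, 2.76 and 1.48 FPKM in the G libraries. All A values exceeded all G values, and the A mean of 13.8 FPKM ± 0.899 (SD, n = 3) was 6.01 times the G mean of 2.30 FPKM ± 0.709 (SD, n = 3). This transcript held 98.6%, 99.4% and 99.4% of the summed transcript FPKM of MAFF in A, but 70.4%, 74.9% and 31.4% in G, where the replicates differed widely.

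A second coding transcript appeared in G. ENST00000426621, of 2216 bases, was listed at the placeholder of 0.0001 FPKM, which stands for no estimate, in all 3 A libraries and at 1.01, 0.443 and 2.26 FPKM in G replicates 1, 2 and 3. It therefore made up 26.8%, 12.0% and 47.8% of the summed transcript FPKM in the G libraries, and in G replicate 3 it exceeded ENST00000338483. Even at its highest, it was far below the level of ENST00000338483 in A.

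The remaining 6 annotated transcripts of MAFF were under 1 FPKM in every library, but 2 of them held visible shares in single G libraries. ENST00000538320, whose first exon covers that of ENST00000338483, reached 0.728 FPKM in G replicate 3 and at most 0.0340 FPKM elsewhere. That was 15.4% of the summed transcript FPKM in G replicate 3. ENST00000417948 reached 0.361 FPKM, or 9.79%, in G replicate 2, where ENST00000426621 was at 0.443 FPKM. It had no estimate in any A library. ENST00000407965 lay between 0.0408 and 0.101 FPKM in all 6 libraries, with the groups overlapping. The retained-intron transcript ENST00000624676 was at 0.0475, 0.0303 and 0.0454 FPKM in A and 0.000741, 0.0530 and 0.193 FPKM in G. No library gave an estimate for ENST00000538999 or ENST00000441709.

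**Figure D2:**
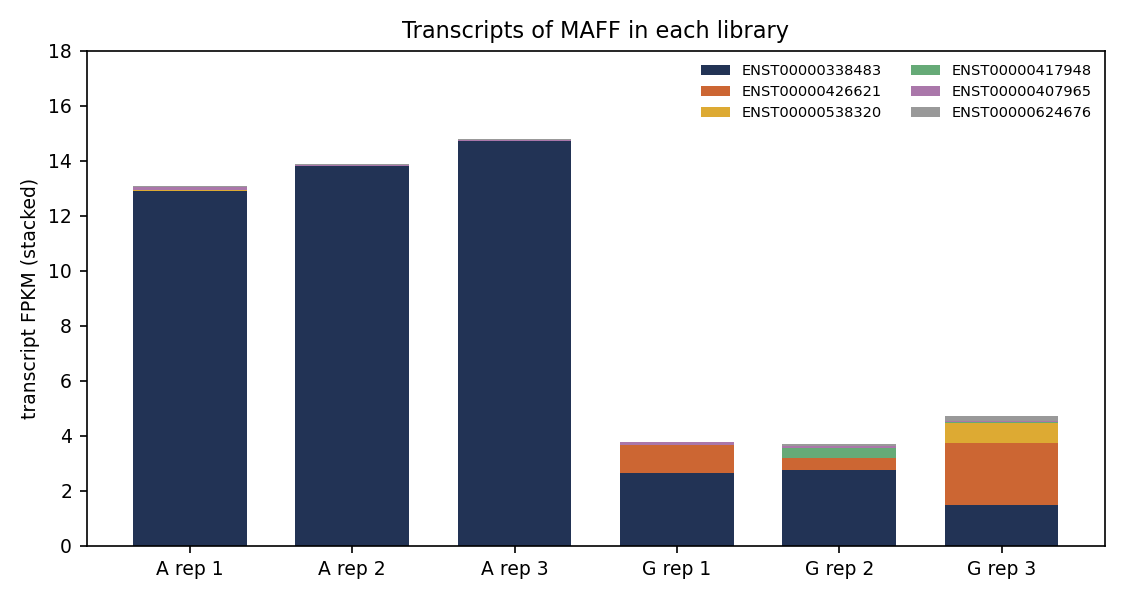
Transcript FPKM of MAFF, stacked by transcript, in each library (bars from 0, linear axis; 2 transcripts without any estimate are not drawn). ENST00000338483 fills the A bars, while the lower G bars also hold ENST00000426621, at 0.443 to 2.26 FPKM.

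Both main transcripts encode the same protein and differ in where they start. ENST00000338483 begins at position 38201994 and ENST00000426621 at 38203020 of chromosome 22, 1026 bases further on. Their noncoding first exons, of 219 and 65 bases, do not overlap. Both then use the same coding sequence of 492 bases, 36 in exon 2 and 456 in exon 3. They share 2151 bases, and just 223 bases of the first and 65 of the second are absent from the other. The estimates of the 2 transcripts are thus told apart over short stretches. Those stretches are not unique among the annotated transcripts. The first exon of ENST00000426621 lies within that of ENST00000417948, and that of ENST00000338483 within that of ENST00000538320. Both also lie within ENST00000624676. How far the shares in G rest on these short stretches was not tested. No exon base of another annotated gene lies within the MAFF exons.

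**Figure D3:**
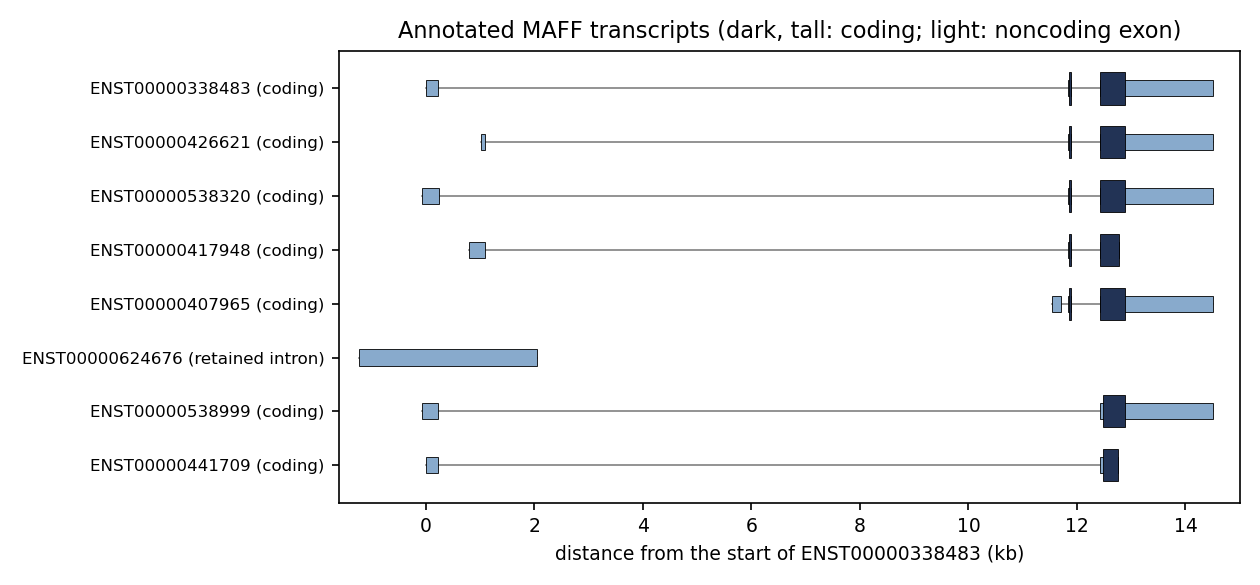
Exons of the 8 annotated MAFF transcripts, drawn to scale against the distance in kb from the start of ENST00000338483. Tall dark boxes are coding and low light boxes noncoding exon. The transcripts differ mainly in the first exon, with the start of ENST00000426621 lying 1026 bases after that of ENST00000338483.

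Because the transcript that was lower in G starts at the first of these sites, the sequence before it is shown. RefSeq promoters on GRCh38.p14 matched 5 of the 6 genes with 10 start sites, and the 2 MAFF sites in that table coincide with the starts of the 2 transcripts above. The stretch below is chr22:38201744-38201931 on the plus strand, 188 bases that end where another annotated coding transcript begins, 62 bases before the start of ENST00000338483. Capitals mark a match, on the minus strand, to the antioxidant response element core TGACNNNGC, the kind of site that CNC and small MAF pairs bind.
MAFF promoter stretch: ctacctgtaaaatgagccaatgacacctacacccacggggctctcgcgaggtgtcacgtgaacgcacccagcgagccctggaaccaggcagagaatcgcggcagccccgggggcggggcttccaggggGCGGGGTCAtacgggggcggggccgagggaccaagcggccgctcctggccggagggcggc
That match begins 122 bases before the start site. Searched on both strands over 250 bases before each of 35116 RefSeq start sites, TGACNNNGC was present in 10.9% of windows. The motif of FOS and JUN dimers, TGANTCA, which can cover the same bases, was in 6.57%, the forkhead core TGTTTAC in 2.98% and the cyclic AMP response element TGACGTCA in 1.65%.

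Each motif had a match in 1 of the 10 windows of these genes. TGACGTCA, a motif added after the sequence had been seen, lies 54 bases before the first MAFF start. TGANTCA matched 48 bases before the BACH1 start at 29298922 and TGTTTAC 162 bases before that at 29299375 on chromosome 21. None of the 4 was found before the second MAFF start. These are matches of letters in short windows, and binding was not measured.

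Neither paralog of MAFF passed the test. MAFG (ENSG00000197063, chr17:81918270-81927735, minus strand), which pairs with the same CNC factors, was at 6.68, 7.59 and 7.00 FPKM in A and at 6.14, 5.67 and 7.24 FPKM in G. The groups overlapped through G replicate 3, and the log2 difference was -0.14 (95% interval -0.37 to 0.090; limma, adjusted p = 0.480). Its transcript ENST00000357736 held 64.7% of its summed transcript FPKM on average and ENST00000392366 35.3%. The latter was at 2.57, 2.54 and 3.31 FPKM in A and 2.71, 4.16 and 3.86 FPKM in G, again overlapping.

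MAFK (ENSG00000198517, chr7:1530702-1543043, plus strand), the most abundant small MAF by summed transcript FPKM in 5 of the 6 libraries, was at 18.8, 19.3 and 6.65 FPKM in A and at 17.3, 19.3 and 18.8 FPKM in G. A replicate 3 stood alone, at 35.6% of the mean of the other 5 libraries. With it the log2 difference was 0.42 (95% interval -0.48 to 1.32; limma, adjusted p = 0.591), and without it -0.045 (adjusted p = 0.816). The low value was that of the main transcript ENST00000343242, 7.80 FPKM in A replicate 3 against 21.9 to 24.7 FPKM elsewhere, while the nonsense-mediated decay transcript ENST00000403150 stayed within 0.866 to 1.56 FPKM in all 6. A lone low value of this size (lower than all others by a factor of at least 2) was found in 376 of 12787 genes, 49 to 80 per library and 66 in A replicate 3.

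BACH1, the repressor of the set, had the clearest difference among the partners, but it did not pass the adjusted threshold. The gene (ENSG00000156273, chr21:29194071-29630751, plus strand) was at 6.52, 6.35 and 6.11 FPKM in A and at 7.61, 7.40 and 8.19 FPKM in G. All 3 G values lay above all 3 A values, as for 15.4% of tested genes. Its means were 6.33 FPKM ± 0.203 (SD, n = 3) and 7.73 FPKM ± 0.410 (SD, n = 3), and the log2 difference was 0.25 (SE 0.063, 95% interval 0.10 to 0.40; limma, unadjusted p = 0.00630, adjusted p = 0.184). It was positive in all 16 alternative settings, at 0.21 to 0.35, with adjusted p from 0.0858 to 0.405.

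The transcripts of BACH1 did not divide by allele. ENST00000286800, 72.8% of the summed transcript FPKM on average, was at 4.66, 6.10 and 8.17 FPKM in A and 10.1, 10.0 and 7.05 FPKM in G. ENST00000399921 was at 4.01, 2.35 and 0.00731 FPKM in A and 0.0239, 0.00411 and 3.89 FPKM in G. It was thus high in A replicates 1 and 2 and G replicate 3, and ENST00000286800 was lowest in A replicates 1 and 2.

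NFE2L1 encodes NRF1, the CNC factor that induces proteasome subunits when the proteasome fails. The gene (ENSG00000082641, chr17:48048329-48061545, plus strand) was at 44.7, 40.8 and 41.0 FPKM in A and 42.3, 41.4 and 41.4 FPKM in G. All G values lay inside the range of A, and the log2 difference was -0.014 (95% interval -0.14 to 0.12; limma, adjusted p = 0.911). ENST00000357480 gave 79.4% of its summed transcript FPKM, at 42.6 to 46.6 FPKM in A and 40.5 to 43.5 FPKM in G. ENST00000361665 gave 12.9%, at 6.45, 6.16 and 5.68 FPKM in A and 9.79, 5.24 and 8.36 FPKM in G.

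NFE2L2 encodes NRF2, the main inducer of antioxidant genes, which KEAP1 holds in check through protein degradation. The gene (ENSG00000116044, chr2:177227595-177392697, minus strand) was at 23.1, 21.8 and 21.3 FPKM in A and 22.0, 20.7 and 21.3 FPKM in G. The groups overlapped, and the log2 difference was -0.047 (95% interval -0.18 to 0.085; limma, adjusted p = 0.676). Its 2 main transcripts, ENST00000397062 (56.4% on average) and ENST00000397063 (26.1%), were lowest in A replicate 3, at 23.2 and 6.22 FPKM. That library was also the only one with an estimate for ENST00000446151, at 17.0 FPKM or 30.8% of the summed transcript FPKM, while its gene total was like that of the others.

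Thus 0 of the 5 partners passed the adjusted threshold, beside 0.109% of all tested genes, in the chosen fit and in each of 16 alternatives. Without adjustment 1 of 5 had a limma p under 0.05, beside 17.3% of all tested genes. Of the 56 partner transcripts, 21 had no estimate in any library and 15 were tested. Of these 15, 0 passed the adjusted threshold (0.147% of all tested transcripts did), 0 had an unadjusted limma p under 0.05 (7.81% of all) and 0 had groups that did not overlap (16.0% of all), with a smallest adjusted p of 0.693.

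Levels between the genes were compared on the sum of transcript FPKM, which is per length of each transcript. The deposited gene values are scaled by the joined length of all exons of a gene, 5611 bases for MAFF, and so run lower. On this scale MAFF was at 13.1, 13.8 and 14.8 in A and 3.77, 3.69 and 4.72 in G. MAFF thus came after NFE2L2, NFE2L1 and MAFK in A replicates 1 and 2, ahead of MAFK in A replicate 3 where the latter was low, and last in all 3 G libraries. MAFG, the nearest gene above it in G, was at 8.14, 8.60 and 10.0, clear of all 3 MAFF values.

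At the upper end, NFE2L1 (52.8 to 56.9 in A, 53.0 to 54.2 in G) and NFE2L2 (53.5 to 57.3 in A, 51.4 to 52.9 in G) were close neighbours. NFE2L2 was ahead by a little in each A library and NFE2L1 in each G library. The summed values of NFE2L2 did not overlap between the alleles, though its gene values did. Its log2 difference on summed values was -0.085, and the share of all genes without overlap was not counted on this scale. MAFK followed at 23.2 to 25.8 in 5 libraries and 9.11 in A replicate 3. BACH1 (9.49 to 9.73 in A, 10.5 to 12.0 in G) and MAFG (8.61 to 9.53 in A) lay side by side in A, where their ranges overlapped.

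**Figure D4:**
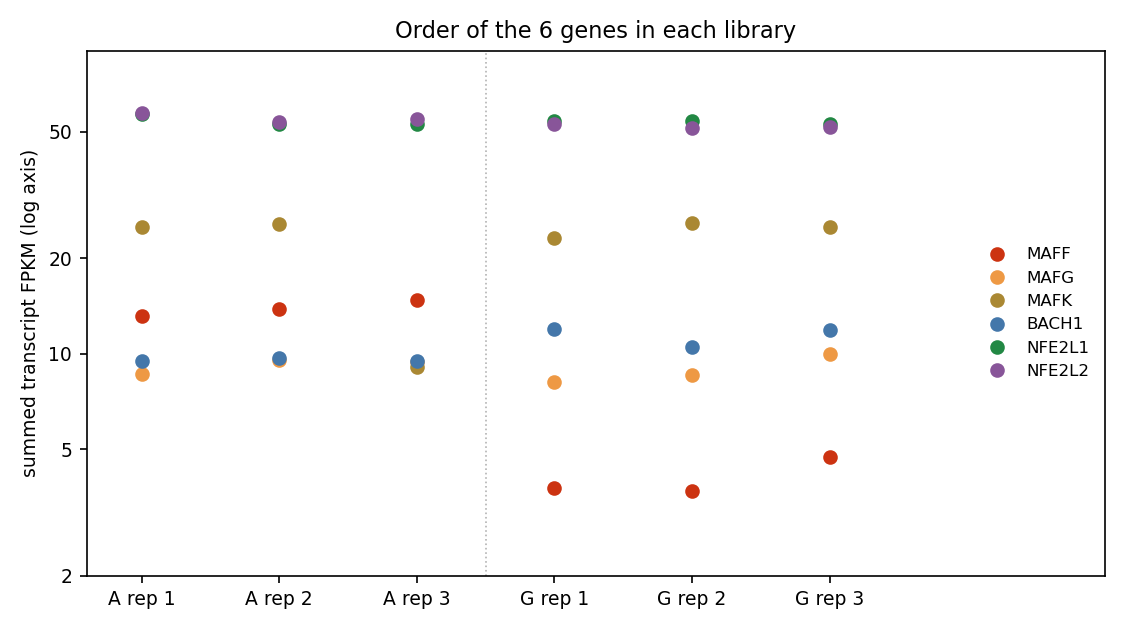
Summed transcript FPKM of the 6 genes in each library, on a log axis. NFE2L1 and NFE2L2 lie together at 51.4 to 57.3 in every library, and MAFF moves from the middle of the order in A (13.1 to 14.8) to the bottom in G (3.69 to 4.72).

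The make-up of the small MAF mRNA pool differed with MAFF. The 3 genes summed to 46.8, 49.1 and 33.4 transcript FPKM in A and 35.2, 38.1 and 39.8 in G. The sums overlapped because A replicate 3, with its low MAFK, fell below all G libraries. MAFF made up 28.0%, 28.2% and 44.5% of this pool in A and 10.7%, 9.68% and 11.9% in G, and MAFK 53.6%, 52.4% and 27.3% in A and 66.1%, 67.7% and 62.9% in G. These shares include the values by which MAFF was chosen and describe RNA, not protein.

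Other genes that use the same dimer partners or sites did not pass the test. Among further CNC factors, NFE2, the erythroid founding member, was at 5.49, 4.72 and 4.76 FPKM in A and 3.94, 6.67 and 4.61 FPKM in G (adjusted p = 0.997), and NFE2L3 at 14.5 to 16.2 FPKM in all 6 libraries (adjusted p = 0.983). BACH2, the lymphoid relative of BACH1, was under 0.08 FPKM throughout. Of the large MAFs, which carry a transactivation domain, MAF, MAFA and NRL were under 1 FPKM in every library. Both p-values are from limma.

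FOS proteins can also pair with small MAFs. FOSL2 was at 11.1, 36.0 and 35.4 FPKM in A and at 42.0, 42.6 and 41.1 FPKM in G. The G values all exceeded the A values, but most of the mean difference came from A replicate 1, which was at 28.0% of the mean of the others. The log2 difference was 0.76 (95% interval -0.27 to 1.80; limma, adjusted p = 0.405) with that library and 0.23 without it. FOS was at 4.05, 2.22 and 2.15 FPKM in A and 2.20, 4.55 and 4.80 FPKM in G (limma, adjusted p = 0.571), with 1 library of each allele on the side of the other. FOSL1 was at 1.09 to 1.94 FPKM in all 6 libraries (limma, adjusted p = 0.837) and FOSB was under 1 FPKM.

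Genes that set the stability or activation of NRF2, BACH1 and NRF1 proteins were all measured, and 0 of 10 passed the adjusted threshold. At an unadjusted limma p under 0.05 there were 3 of 10, all with higher values in G, beside 17.3% of all tested genes (10.5% higher in G). DDI2, the protease that activates NRF1, was at 5.02, 4.26 and 4.42 FPKM in A and 5.99, 6.01 and 5.92 FPKM in G, with no overlap (log2 difference 0.33; limma, adjusted p = 0.167). The other two were BTRC, a ligase adaptor for NRF2, from 5.08 to 5.76 FPKM in the mean (adjusted p = 0.258), and FBXL17, an adaptor for BACH1, from 4.12 to 4.69 FPKM (adjusted p = 0.281).

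KEAP1, the sensor that marks NRF2 for degradation, was at 26.8, 28.6 and 22.6 FPKM in A and 19.4, 24.4 and 20.1 FPKM in G. These ranges overlapped through A replicate 3 and G replicate 2 (log2 difference -0.28; limma, adjusted p = 0.300). SYVN1, a ligase of the endoplasmic reticulum, was at 15.4 to 18.1 FPKM in A and 11.2 to 15.8 FPKM in G (adjusted p = 0.301), and SQSTM1, which sequesters KEAP1, was at 172 to 186 and 164 to 176 FPKM (adjusted p = 0.423). For CUL3 and RBX1, the ligase core that works with KEAP1, limma gave adjusted p = 0.969 and 0.439. For FBXO22, another BACH1 adaptor, and NGLY1, which deglycosylates NRF1, it gave 0.918 and 0.404.

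Genes known as targets of CNC and small MAF dimers were read from a list of 28, all of which were tested. Of these 0 passed the adjusted threshold (0.109% of all tested genes did), and 4 of 28 had an unadjusted limma p under 0.05, all with lower values in G, beside 17.3% of all tested genes (6.82% lower in G). The difference was negative for 23 of 28, with a median of -0.093, where 44.9% of all tested genes were negative and the median was 0.022. The groups did not overlap for 10 of 28 genes, 8 of them lower in G, beside 24.9% of all tested genes (9.57% lower in G). The signs depend on the scaling, which also moves the median of all tested genes. With library sums set equal, 13 of 28 were negative with a median of 0.012, beside 0.110 for all genes. After quantile normalization 15 of 28 were negative with a median of -0.012, beside 0.001 for all genes. With median-ratio factors 23 of 28 were negative with a median of -0.114, beside 0.003. The median of the list thus lay below that of all tested genes under each of these scalings. The mitochondrial share of FPKM given above differs between the alleles too, and its part in these values was not tested.

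TALDO1 and AKR1C3 had the smallest p among the targets, and neither passed the adjusted threshold. TALDO1, a pentose phosphate enzyme, was at 157, 162 and 159 FPKM in A and 132, 132 and 133 FPKM in G (log2 difference -0.26; limma, adjusted p = 0.127). AKR1C3, an aldo-keto reductase, was at 135, 145 and 143 FPKM in A and 127, 114 and 120 FPKM in G (-0.23; adjusted p = 0.185). In both, all G values were lower than all A values.

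The next 6 had smaller or less separated differences. The log2 difference was -0.12 for FTL, the ferritin light chain, and -0.15 for BLVRB, a biliverdin reductase (limma, adjusted p = 0.267 and 0.281). It was -0.17 for EPHX1, an epoxide hydrolase, -0.080 for AKR1B10, an aldo-keto reductase, and -0.23 for OSGIN1, an oxidative stress gene (limma, adjusted p = 0.292, 0.316 and 0.321). PGD, another pentose phosphate enzyme, was at 101, 106 and 84.5 FPKM in A and 90.6, 80.2 and 78.5 FPKM in G, with overlap (log2 difference -0.22; limma, adjusted p = 0.326). After quantile normalization it was 0.18 for both FTL and AKR1B10, with the sign turned. HMOX1, the standard target of BACH1 repression, was named outside the rule after its values were seen. It was at 21.5, 21.0 and 21.6 FPKM in A and 21.5, 23.5 and 22.4 FPKM in G (log2 difference 0.069, 95% interval -0.060 to 0.20; limma, adjusted p = 0.533). NQO1, a quinone reductase that NRF2 induces, was likewise added, at 160 to 169 FPKM in A and 160 to 162 FPKM in G (adjusted p = 0.645).

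Proteasome subunits, which NRF1 induces, had 0 of 31 genes past the adjusted threshold (0.109% of all tested genes passed). At an unadjusted limma p under 0.05 there were 4 of 31, all with lower values in G. The shares over all tested genes were 17.3% in either direction and 6.82% lower in G. The difference was negative for 24 of 31, with a median of -0.10, beside 44.9% of all tested genes. Once library sums were set equal, it was negative for 12 of 31 with a median of 0.008, beside a median of 0.110 for all tested genes. It was negative for 25 of 31 both after quantile normalization (median -0.078) and with median-ratio factors (median -0.119). The medians of all tested genes were 0.001 and 0.003 in these 2 settings. PSMB7 was at 65.7 to 70.2 FPKM in A and 57.5 to 61.4 FPKM in G, and PSMB2 at 36.7 to 37.7 and 32.5 to 34.2 FPKM (limma, adjusted p = 0.199 and 0.209). Neither gene's groups overlapped, but both were picked for a small p. In the whole list 11 of 31 genes had no overlap, 9 of them lower in G, beside 24.9% of all tested genes (9.57% lower in G).

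**Figure D5:**
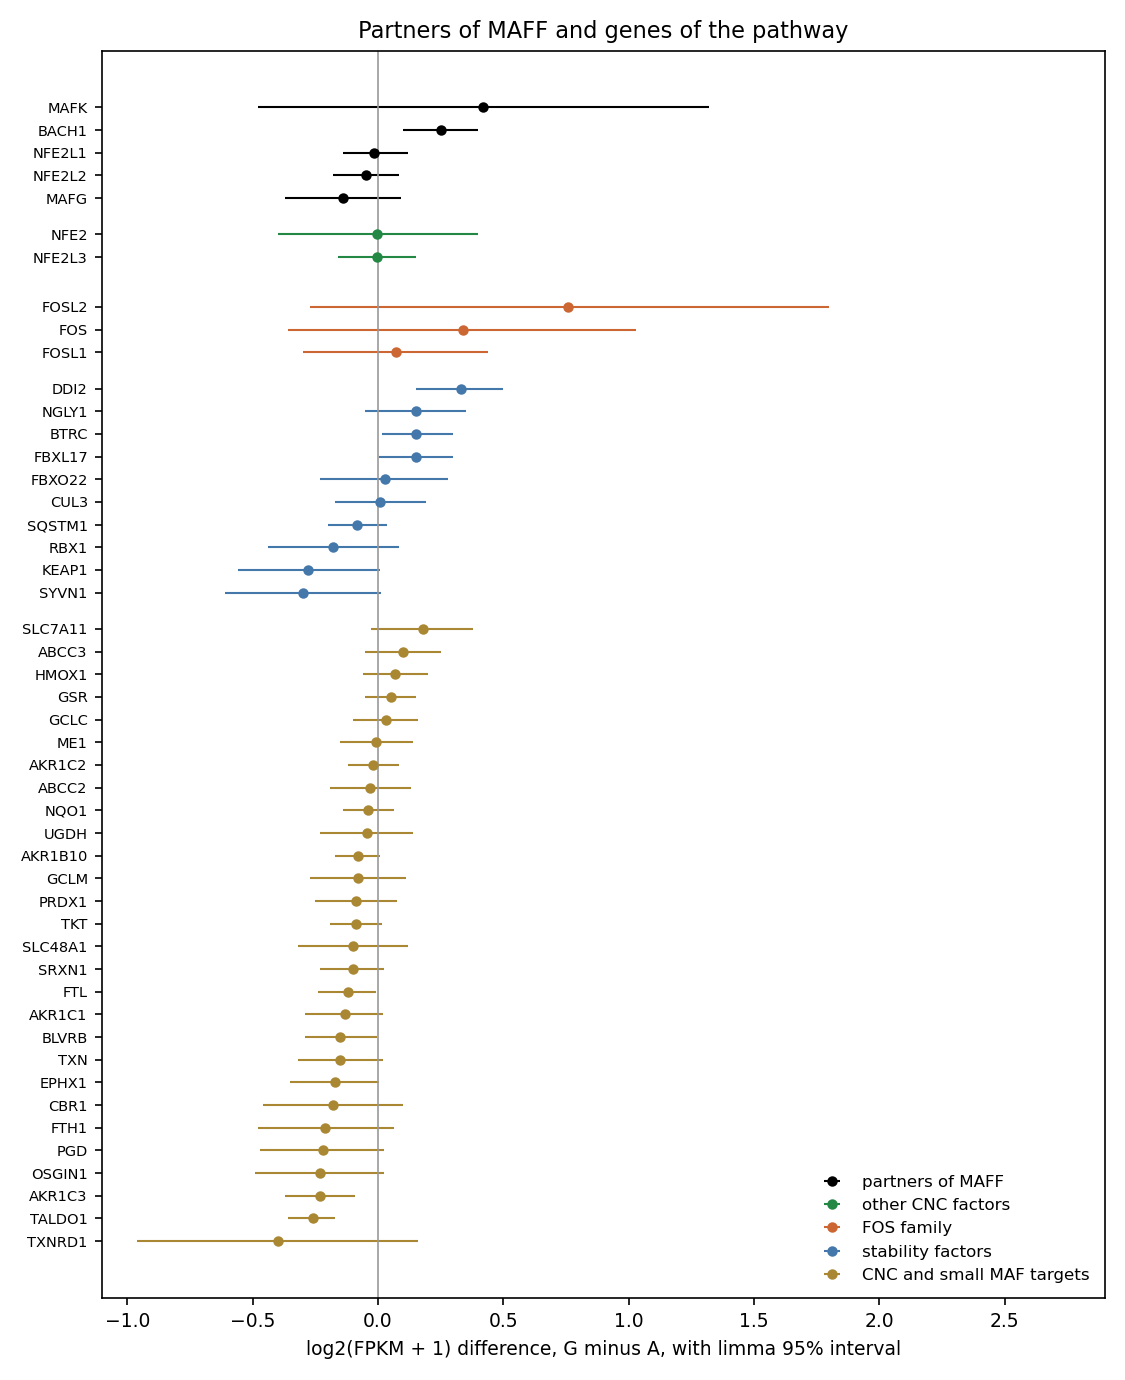
Log2(FPKM + 1) differences, G minus A, with 95% limma intervals, for the partners of MAFF (MAFF itself is left out) and for the tested genes of the pathway lists. The intervals of MAFK and FOSL2 are wide, each with a lone low A library. Most target genes lie a little to the left of 0 (23 of 28). With equal library sums it was 13 of 28, where the median of all genes was 0.110. The targets run from -0.40 for TXNRD1 to 0.18 for SLC7A11. The interval of TXNRD1 is -0.96 to 0.16, and its A replicate 3, at 96.1 FPKM, lay below all G libraries (107 to 110 FPKM).

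Genes next to MAFF were examined for a change over the whole locus. PLA2G6, a phospholipase gene on the opposite strand whose span reaches over the start of MAFF, was at 2.57 to 2.77 FPKM in A and 2.65 to 2.82 FPKM in G (limma, adjusted p = 0.812). TMEM184B, 2784 bases beyond the end of MAFF, was at 40.5, 35.5 and 34.1 FPKM in A and 34.0, 19.4 and 42.9 FPKM in G (adjusted p = 0.650), and CSNK1E, a casein kinase gene, at 36.9 to 38.3 and 37.6 to 44.8 FPKM (adjusted p = 0.454). None of these 3, the only neighbours within 100 kb to pass the filter, was past the threshold. BAIAP2L2, AL022322, AL020993, RN7SL704P, TPTEP2-CSNK1E and RF00017 fell below the filter.

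The genes whose levels over the 6 libraries were most like those of MAFF were found by Pearson correlation of log2(FPKM + 1), a measure that the gap between the alleles dominates. The highest were PFDN1 (0.998), SRI (0.995), CRIPT (0.994), MT-ND3 (0.994) and THEM6 (0.993). Their own differences were smaller than that of MAFF: PFDN1, a subunit of the prefoldin chaperone, was at 19.1 to 19.6 FPKM in A and 15.2 to 16.0 FPKM in G. MT-ND3, a complex I subunit of the mitochondrial genome, was at 1417 to 1528 and 913 to 1015 FPKM. The most opposite were LINC01058 (-0.997), ABCB11 (-0.995), STAG3L2 (-0.994), SFXN3 (-0.993) and FREM2 (-0.992). LINC01058 was at 1.03 to 1.22 FPKM in A and 2.01 to 2.21 FPKM in G, while ABCB11 and FREM2 exceeded 1 FPKM in G libraries alone and so passed the filter through that group.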

How the data were processed

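Libraries were made from oligo(dT)-selected RNA with a dUTP-marked second strand and read as pairs of 150 bases, per the labels' protocols. The tools named in the submitters' processing notes are StringTie 1.3.4d, HISAT2 2.0.4 and cutadapt 1.9. Those notes name a mouse build, but the files are human: GENCODE release 29 holds 206348 of the deposited transcripts, and for 94.6% of these GRCh38 position and strand were identical. What strand setting, annotation release and test the authors used is not given in the sources used here. Per the file headers, the 2 deposited tables hold FPKM per library and, for G against A, a p-value, a q-value and a fold ratio with its log2. In 28089 genes every library had the deposited FPKM of 0.0001, a placeholder for a missing estimate.

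Values were taken as log2(FPKM + 1), which understates changes of low genes. Genes (12787) and transcripts (29990) that reached 1 FPKM in 3 or more of the 6 libraries were tested with limma 3.58.1 (trend option, R 4.3.3), with Benjamini-Hochberg adjustment over all of them and a threshold of 0.05. Depth was estimated from the FPKM step of 1 read pair in single-transcript, single-exon genes over 400 bases, sought between 10000000 and 30000000. Only 33.7% to 36.1% of those values were whole multiples within 0.02 pairs, so whole reads could not be recovered and count models were not applied. Python 3.11.15 with pandas 2.3.3 handled the tables, and coding sequences were aligned with Biopython 1.88.

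On simulated data for this comparison over 12787 genes, in 5 runs, the share of changed genes recovered was 63.3% at 1.5-fold, 83.6% at 2-fold and 96.1% at 4-fold, and 38 of 62935 unchanged genes were called. Changes were placed only in genes with a mean log2(FPKM + 1) of at least 2, as folds of FPKM + 1, so lower genes are not covered. The share recovered also depends on the number of genes changed. It may therefore not hold for the real comparison, where 14 genes were called. The labels do not say whether replicates were separate cultures, so the spread behind the p-values may be technical. Deviations from the group means correlated at 0.0731, 0.0154 and 0.0404 between same-numbered libraries of the 2 alleles. Between differently numbered ones they correlated at -0.0556 to 0.0155. All of these were small, and the numbers were not taken as pairs, though whether the libraries were paired is not known.

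The members and gene lists were chosen with earlier results of these data known. Named were the members and all MAFF transcripts, partner transcripts with a mean share of at least 10%, all genes of the short lists, the 8 targets and 2 proteasome genes with the smallest p, neighbours within 100 kb, the 5 genes most and the 5 least correlated with MAFF, and FOXM1. Some list members are not reported here and were taken out of the lists and their counts. Alternatives changed the pseudocount, filter, scaling, variance model, library weights, replicate block and set of libraries.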

Additional observations from a re-analysis of the deposited data

How the results depend on the processing

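MAFF was lower in G under every alternative. Its log2 difference of -1.38 became -1.78 with a pseudocount of 0.1, -1.83 with 0.01 and -1.57 on summed transcript FPKM (chosen after seeing the data), was -1.46 to -1.32 when each library was left out in turn, and stayed within -1.42 to -1.30 otherwise. With the replicate block it was -1.38. The same-numbered correlations of replicates 1 and 3 (0.0731 and 0.0404) were small but above all differently numbered ones, which reached 0.0155. That of replicate 2 was 0.0154, and whether the libraries were paired is not known. Neither a partner nor a target gene was called under any of the 16 alternatives. The count of called genes was 14, with 4 higher and 10 lower in G. It was 1 with no filter, 6 after quantile normalization, 4 without the variance trend, 0 with the replicate block (2148 at an unadjusted limma p under 0.05) and 5 to 20 without single libraries. Without A replicate 1 it was 20, with 12 higher and 8 lower, and without A replicate 3 it was 5, with 4 higher and 1 lower. Without A replicate 2 it was 5 (3 higher, 2 lower), and without G replicates 2 and 3 it was 6 and 5. Library weights gave 21, with 7 higher and 14 lower. Equal library sums gave 15 calls, 7 higher and 8 lower, and moved the median of all genes from 0.022 to 0.110. The count of called transcripts, 44, was 23 and 0 with pseudocounts of 0.1 and 0.01 (2161 at an unadjusted p under 0.05 in the latter), 7 with no filter, 2 with 1 FPKM required in all 6 libraries, 0 with the block (1925 unadjusted) and 7 to 37 without single libraries. Signs of differences that did not pass the threshold turned in places. Equal sums, which raise every G library against every A library, gave NFE2L1 0.092, NFE2L2 0.057, NFE2 0.088, NFE2L3 0.10, SQSTM1 0.024 and AKR1B10 0.028. Quantile normalization gave NFE2L1 0.026, SQSTM1 0.05, AKR1B10 0.18, FTL 0.18, CUL3 -0.0060, FBXO22 -0.03 and PLA2G6 -0.02. Library weights gave NFE2L1 0.0001, and median-ratio factors gave CUL3 -0.014. Leaving out single libraries gave MAFK -0.045 to 0.66, NFE2L1 -0.037 to 0.028, NFE2 -0.18 to 0.13, NFE2L3 -0.05 to 0.027, FOSL1 -0.075 to 0.17, CUL3 -0.043 to 0.07, FBXO22 -0.07 to 0.094, TMEM184B -0.49 to 0.058 and FOXM1 -0.19 to 0.44. The cause of the other turns was not tested. By the depth estimate, MAFF in G rests on 164 to 257 read-pair equivalents, and how far depth limits its transcript values was not tested.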
